A study of Mus musculus with 13 samples.

Results

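The loci described here hold 10 imprinted mouse genes: H19, Igf2, Grb10, Mest, Peg3, Plagl1, Rasgrf1, Meg3, Peg10 and Impact. They were chosen by gene name. H19 and Igf2 lie in 1 stretch of chromosome 7 and were taken as 1 locus, which leaves 9 loci. Each locus is the span of its gene in the mouse build GRCm38.p6 (mm10) with 50 kb on each side. A peak is a stretch that the authors' peak caller listed for 1 library, and a site is a set of peaks, from 1 or more libraries, that overlap by at least 1 bp. The 9 windows held 77 of the 114651 sites found over all 12 lists. The windows are 9 of 34609 such windows around protein-coding and long non-coding RNA genes.

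The study mapped STAG1, STAG2 and CTCF by chromatin immunoprecipitation and sequencing (ChIP-seq) in NU1, a wild-type line of mouse urothelial cells that became immortal on its own during passaging. Each antibody was used on quiescent and on proliferating cells, with 2 biological replicates each, so the results rest on 12 libraries in 6 groups. Quiescent cells had been grown to confluence and then kept in medium with 0.5 uM erlotinib, an inhibitor of the EGF receptor kinase, and 1 uM rosiglitazone, an activator of PPAR gamma, a nuclear receptor, while proliferating cells had neither. All groups share the 1 cell line, and each precipitation used 25 ug of antibody on 550 ug of chromatin. The lists measure no expression, so the urothelial identity of the cells rests on the labels.

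At an imprinted gene only the copy from 1 parent is used, and the choice is set by DNA methylation laid down in the egg or the sperm at a control region. CTCF, a zinc finger protein, binds some control regions only where they are unmethylated. The best known case lies just upstream of H19, where CTCF on the maternal copy keeps Igf2 from enhancers on the far side of H19. Cohesin, the ring complex that holds chromatin loops, carries either STAG1 or STAG2 as a subunit and often stops where CTCF is bound. The lists do not separate the parental copies, and DNA methylation was not measured.

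RefSeq promoter sequences of GRCm38.p6, which run from 250 bases before a listed start to 50 bases after it, were matched by symbol for Grb10, Igf2, Meg3, Mest, Peg3, Plagl1 and Rasgrf1. No sequence was printed for H19, Peg10 and Impact. The CTCF motif was searched as a longer core, which begins with CCNC and ends with GGCAG, and as the shorter core GGNGGCAG, which overlaps the end of the longer one, both on either strand. The longer core was in none of the members' promoters, and 0.926% of all 32817 promoters hold it. Grb10, Igf2, Meg3 and Mest have more than 1 listed promoter, some of them overlapping at Mest, and each was searched. Counts of promoters are thus not counts of genes, and the promoters are too few to set against the shares of all promoters. The shorter core was in 3 promoters of the members, 1 each of Grb10, Igf2 and Rasgrf1, and 12.6% of all promoters hold it. These 3 are shown 5′ to 3′ on the strand of the gene with the match in capitals, because a site described below covers each of these promoters in whole or in part. The promoter of Peg3 is shown with them because the highest STAG peaks of that locus had their summits beside its start, although neither motif was in it.

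Grb10, chr11:12037371-12037670, minus strand: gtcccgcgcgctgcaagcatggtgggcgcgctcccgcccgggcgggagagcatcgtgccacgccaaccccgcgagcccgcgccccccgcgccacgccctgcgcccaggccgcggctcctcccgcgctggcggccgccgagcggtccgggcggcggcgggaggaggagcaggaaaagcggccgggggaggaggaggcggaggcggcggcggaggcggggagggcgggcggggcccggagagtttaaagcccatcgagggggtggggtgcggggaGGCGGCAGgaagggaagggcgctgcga

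Igf2, chr7:142658755-142659054, minus strand: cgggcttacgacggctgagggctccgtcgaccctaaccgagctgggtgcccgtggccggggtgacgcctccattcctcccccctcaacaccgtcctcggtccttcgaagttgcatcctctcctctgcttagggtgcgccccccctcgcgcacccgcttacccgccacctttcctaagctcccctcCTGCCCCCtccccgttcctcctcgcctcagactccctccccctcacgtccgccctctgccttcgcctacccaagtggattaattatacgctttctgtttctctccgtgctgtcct

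Rasgrf1, chr9:89909525-89909824, plus strand: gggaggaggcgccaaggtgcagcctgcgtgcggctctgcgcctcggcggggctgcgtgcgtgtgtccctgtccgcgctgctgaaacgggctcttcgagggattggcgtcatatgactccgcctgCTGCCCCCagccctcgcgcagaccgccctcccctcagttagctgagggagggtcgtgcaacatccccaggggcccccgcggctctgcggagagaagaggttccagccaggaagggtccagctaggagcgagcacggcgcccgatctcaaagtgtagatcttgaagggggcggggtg

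Peg3, chr7:6730370-6730669, minus strand: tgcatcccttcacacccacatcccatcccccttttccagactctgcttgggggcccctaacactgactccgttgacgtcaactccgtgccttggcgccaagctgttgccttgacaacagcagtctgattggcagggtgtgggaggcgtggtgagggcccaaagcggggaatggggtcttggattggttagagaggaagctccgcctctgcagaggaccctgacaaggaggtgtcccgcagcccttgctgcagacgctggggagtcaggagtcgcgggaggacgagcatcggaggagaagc

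The printed Grb10 promoter was 80.0% G and C and held 45 CG pairs. The printed ones of Peg3, Igf2 and Rasgrf1 held 13, 24 and 26. Other listed promoters of these genes held fewer, with 9 CG pairs and 52.3% G and C for Grb10, and 7, 14 and 2 CG pairs for Igf2. Those of Meg3, Mest and Plagl1 held from 1 to 26. Over all promoters the median was 7 CG pairs and the mean content of G and C was 53.8%.

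The 12 lists held between 34281 and 71757 peaks, of which 28 to 49 lay in the 9 windows. They give no read totals, so the depth behind a peak is unknown, and the number of peaks in a list depends on how well each precipitation worked. The fold enrichments named below are the authors' and rank peaks within a list. Where folds of several libraries are set side by side, they describe those libraries and were not tested. The lists differ in length, so folds of the 2 states set side by side do not measure a change. Folds of different antibodies come from separate precipitations, so they do not measure which protein is bound more. With 2 libraries a state, an exact two-sided permutation test cannot go below 0.333. Folds or peak numbers that do not overlap between the states can thus often arise without any difference. Their share over all sites or windows was not counted. A percentile is the place of a fold within its own list.

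Of the 77 sites, 15 were called in all 12 libraries, which is 19.5%, against 15.9% of all sites. At the other end, 22 sites were called in 1 library, which is 28.6%, against 32.9% of all sites. A site called in every library stood in 7 of the 9 windows, and 67.7% of all windows held one. The windows without one were those of Plagl1 and Impact. Within 5 kb of an end of the gene, such a site was found at H19, Grb10, Mest, Peg3 and Peg10, which is 5 of the 10 genes, against 39.1% of all genes. These shares of the imprinted loci stood near those of the genome, while some given further below stood farther from them.

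**Figure D1:**
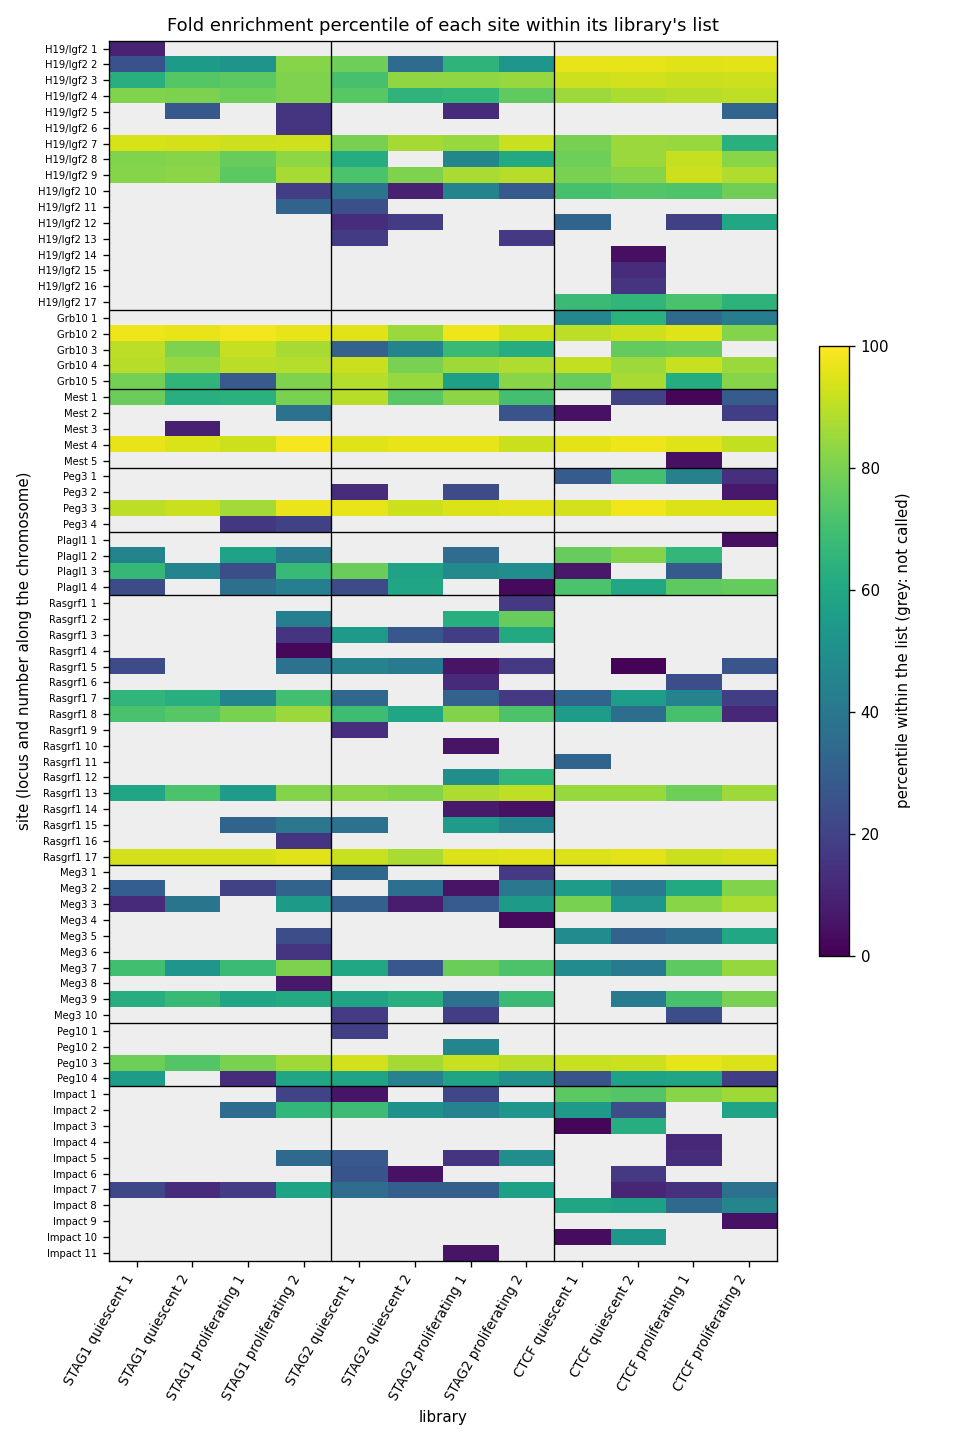
Percentile of the fold enrichment of each of the 77 sites (rows, numbered along the chromosome within a locus) in each of the 12 libraries (columns), with grey where no peak was called. H19/Igf2 and Rasgrf1 had 17 sites each, and 15 sites were called in every library.

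At H19 and Igf2, 17 sites were found and 5 of them were called in all 12 libraries. H19 encodes a maternally expressed long non-coding RNA, and Igf2 a paternally expressed growth factor. All 5 shared sites lay on the H19 side of Igf2. The nearest one to H19 was the seventh site of the locus, chr7:142579966-142581221, which lies between 1820 and 3075 bp beyond the end of H19 that faces Igf2, in no annotated gene. This is the side on which the known control region lies. Its fold enrichments for STAG1 were 37.4 and 38.9 in quiescent cells, against 34.4 and 31.9 in proliferating cells. Those for STAG2 were 20.5 and 23.9 in quiescent cells, against 19.96 and 22.5 in proliferating cells. Those for CTCF were 17.5 and 23.5 in quiescent cells, against 25.4 and 10.5 in proliferating cells. No antibody lacked the site in either state, and the lowest fold was that of 1 proliferating CTCF library.

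The eighth site, chr7:142581558-142582307, began 3412 bp beyond the same end of H19 and was called in 11 libraries. Its STAG1 folds were 19.5 and 21.5 in quiescent cells, against 17.96 and 18.96 in proliferating cells. For STAG2 it was called at 12.5 in 1 of 2 quiescent libraries, against 7.49 and 8.48 in proliferating cells. For CTCF the folds were 16.5 and 23.5 in quiescent cells, against 34.9 and 21.0 in proliferating cells. STAG2 in quiescent cells was the 1 group in which a library lacked the site, and the other library had the highest STAG2 fold. Between H19 and the seventh site, a weak sixth site was called in 1 proliferating STAG1 library at 4.49.

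The other shared sites of the locus lay farther out. The second and the third, chr7:142532595-142533665 and chr7:142537737-142538635, overlapped Mrpl23, a gene for a mitochondrial ribosomal protein on the far side of H19. The fourth, chr7:142549749-142550467, overlapped Nctc1, a long non-coding RNA gene on the same side. The ninth, chr7:142610379-142611119, overlapped Gm33148, an annotated gene between H19 and Igf2. At the second site the CTCF folds were 53.7 and 42.6 in quiescent cells, against 46.0 and 48.3 in proliferating cells. Its STAG1 folds were 5.5 and 9.34 in quiescent cells, against 9.0 and 18.0 in proliferating cells, and its STAG2 folds were 19.3 and 7.75 in quiescent cells, against 11.0 and 7.25 in proliferating cells. All CTCF folds at this site thus lay above all STAG folds.

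The order of these 2 sites was opposite for the STAG antibodies and for CTCF. In each of the 8 STAG libraries the seventh site, beside H19, had a higher fold than the second, in Mrpl23, and in each of the 4 CTCF libraries the second had a higher fold than the seventh. This pair was chosen after its values were seen.

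**Figure D2:**
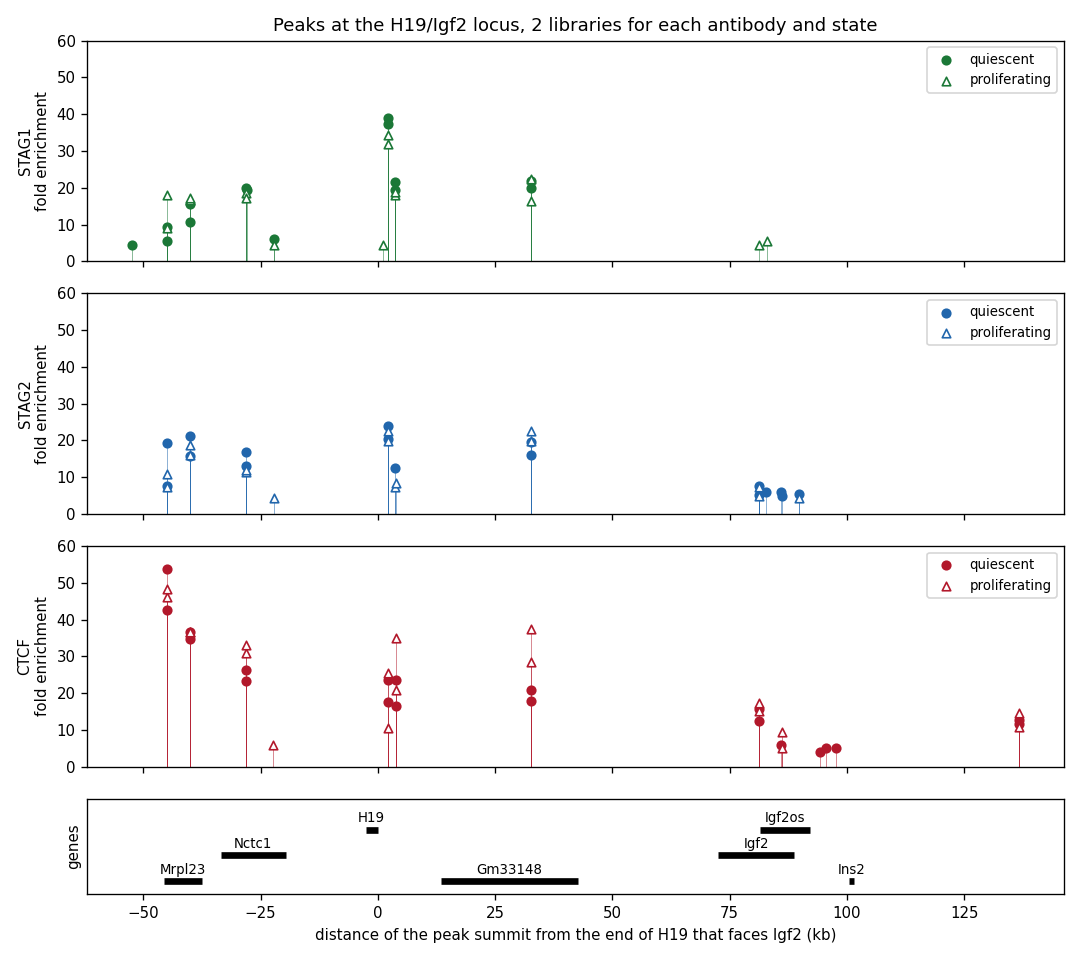
Fold enrichment of every peak at the H19/Igf2 locus (vertical axis) by the distance of its summit from the end of H19 that faces Igf2 (horizontal axis, kb), with filled circles for quiescent and open triangles for proliferating libraries and gene spans below. STAG1 peaks are highest just beyond H19, at 37.4 and 38.9 in quiescent cells, while CTCF peaks are highest in Mrpl23, at 53.7 and 42.6 in quiescent cells.

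At Igf2 itself no site was called in all libraries. The tenth site, chr7:142658865-142660156, covered 190 of the 300 bases of the Igf2 promoter printed above, on the upstream side, and was called in 9 libraries. Of the 8 bases of the match in capitals, 5 lay inside the site. The median summit lay -567 bp from that start for CTCF, outside the printed sequence. Its CTCF folds were 12.5 and 15.8 in quiescent cells, against 15.3 and 17.3 in proliferating cells. STAG2 was called there at 7.5 and 5.25 in quiescent cells, against 7.34 and 5.0 in proliferating cells. STAG1 was called in none of its quiescent libraries, against 1 of 2 proliferating ones, at 4.50. CTCF thus had the highest folds of the 3 at this site in both states. The twelfth site, chr7:142663878-142664543, also in Igf2, was called for STAG2 at 5.0 and 6.0 in quiescent cells and in no proliferating library. The thirteenth lay 890 bp beyond Igf2 and was called for STAG2 at 5.49 in 1 quiescent library, against 4.49 in 1 proliferating library. Farther beyond Igf2, the seventeenth site, chr7:142714607-142715441, was called for CTCF at 11.5 and 12.8 in quiescent cells, against 14.5 and 10.8 in proliferating cells, and in no STAG library.

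To compare the antibodies at lists of equal length, the 15 shared sites were ranked among the 18250 sites called in all 12 libraries, separately in each library, from 0 to 100%. This ranking was chosen after the data had been seen. At the seventh site of H19/Igf2 the 8 STAG ranks ran between 59.1% and 88.1%, all above the 4 CTCF ranks between 27.1% and 56.3%. At the eighth site of Rasgrf1, inside that gene, the STAG ranks ran between 32.6% and 60.1% and the CTCF ranks between 2.04% and 31.5%. In all, 2 of the 15 sites had every STAG rank above every CTCF rank, against 11.3% of all shared sites.

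The reverse was found at the second and the third site of H19/Igf2. At the second, the STAG ranks ran between 7.2% and 55.8% and the CTCF ranks between 85.5% and 90.9%. At the third, the STAG ranks ran between 35.9% and 69.6% and the CTCF ranks between 75.2% and 79.1%. So 2 of the 15 sites had every STAG rank below every CTCF rank, against 13.4% of all shared sites. The H19/Igf2 locus held sites of both kinds, while the counts over all loci were close to what the whole genome gave.

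STAG2 and STAG1 also differed at 4 of the shared sites without overlap of their ranks. STAG2 ranks lay above all STAG1 ranks at the third site of Peg10, with 75.3% to 85.7% for STAG2 and 49.9% to 61.6% for STAG1. The same held at the thirteenth site of Rasgrf1, with 64.5% to 76.7% for STAG2 and 27.5% to 51.1% for STAG1. STAG2 ranks lay below all STAG1 ranks at the seventh site of H19/Igf2, with 59.1% to 79.6% for STAG2 and 80.3% to 88.1% for STAG1, and at the fourth site there, with 28.0% to 48.8% for STAG2 and 49.5% to 63.7% for STAG1. Thus 2 of 15 were above, against 12.3% of all shared sites, and 2 were below, against 13.5%.

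At none of the 15 sites did every quiescent rank of STAG1, STAG2 and CTCF lie above, or below, every proliferating rank. Of all shared sites, 0.0329% had every quiescent rank above every proliferating rank and 0.0877% the reverse. The rule pools the antibodies and was rarely met anywhere, so it cannot decide on a difference within 1 antibody. STAG2 ranks at the fifth site of Grb10 were 77.5% and 72.0% in quiescent cells, against 17.1% and 58.3% in proliferating cells. At the seventh site of Meg3 they were 27.9% and 7.31%, against 46.4% and 39.6%. Such separations within 1 antibody were not counted. With 2 libraries against 2, an exact two-sided permutation test of 1 antibody at 1 site cannot go below 0.333, so no site was tested alone.

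**Figure D3:**
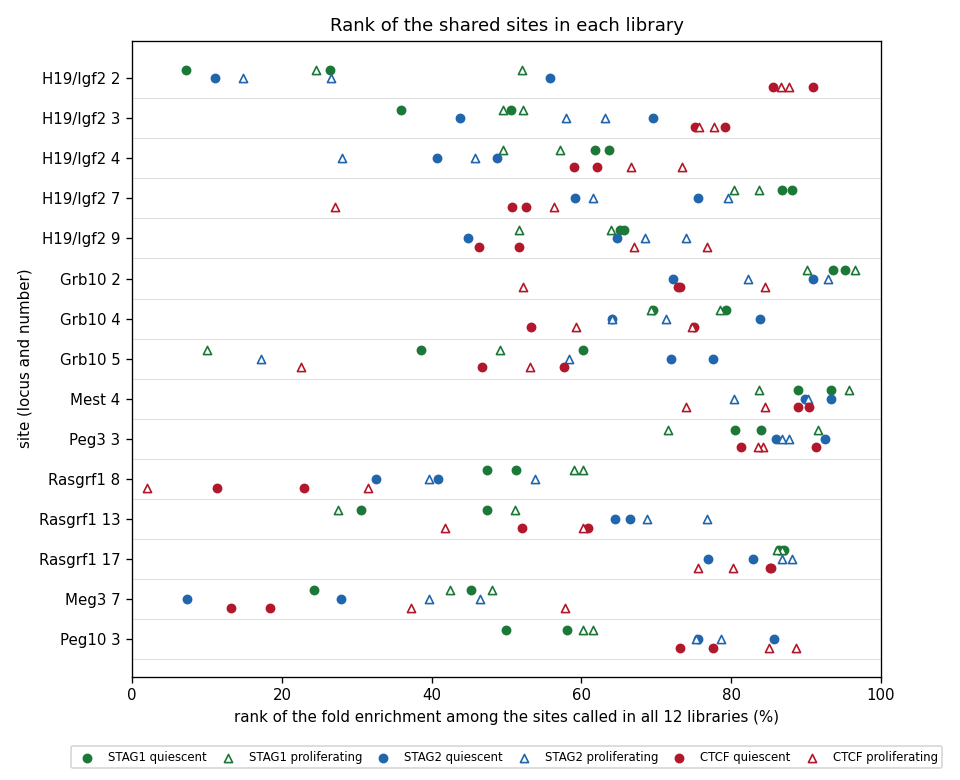
Rank of the fold enrichment of the 15 sites called in all 12 libraries among the 18250 such sites of the genome (horizontal axis, percent), with 1 point per library, colours for the antibodies, filled circles for quiescent and open triangles for proliferating libraries. At the second site of H19/Igf2 the CTCF points lie between 85.5% and 90.9%, to the right of all STAG points, and at its seventh site they lie to the left of all STAG points.

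Peg3, which encodes a zinc finger protein, is read from the paternal copy and shares its 5′ end with Usp29, a gene for a member of the ubiquitin-specific protease family that runs the other way. The third site of this locus, chr7:6727103-6730726, spanned this shared end, was called in all 12 libraries and held separate summits. Close to the start of Peg3, beside the promoter printed above, the folds for STAG1 were 29.4 and 35.5 in quiescent cells, against 25.7 and 44.5 in proliferating cells. There the folds for STAG2 were 45.3 and 30.6 in quiescent cells, against 34.0 and 27.9 in proliferating cells. Those for CTCF were 29.8 and 31.7 in quiescent cells, against 26.04 and 23.02 in proliferating cells. At this summit the ranges of the 3 antibodies overlapped.

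A further summit lay inside Peg3, at a median of -2954.5 bp from the end of the gene, minus meaning into the gene. There the folds for STAG1 were 11.7 and 8.34 in quiescent cells, against 8.67 and 9.0 in proliferating cells. Those for STAG2 were 7.0 and 6.33 in quiescent cells, against 5.0 and 5.34 in proliferating cells. Those for CTCF were 39.0 and 49.0 in quiescent cells, against 43.7 and 42.7 in proliferating cells. All CTCF folds at the inner summit were above all STAG folds. Within each of the 8 STAG libraries the summit at the start was the higher one, and within each of the 4 CTCF libraries the inner one was. The highest STAG1 and STAG2 summits had medians of 91.0 bp and 75.5 bp downstream of the listed start, and the highest CTCF summits a median of 2905 bp. Ranks of this site therefore take the STAG value from 1 summit and the CTCF value from the other. A smaller summit between them was called in 7 libraries.

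**Figure D4:**
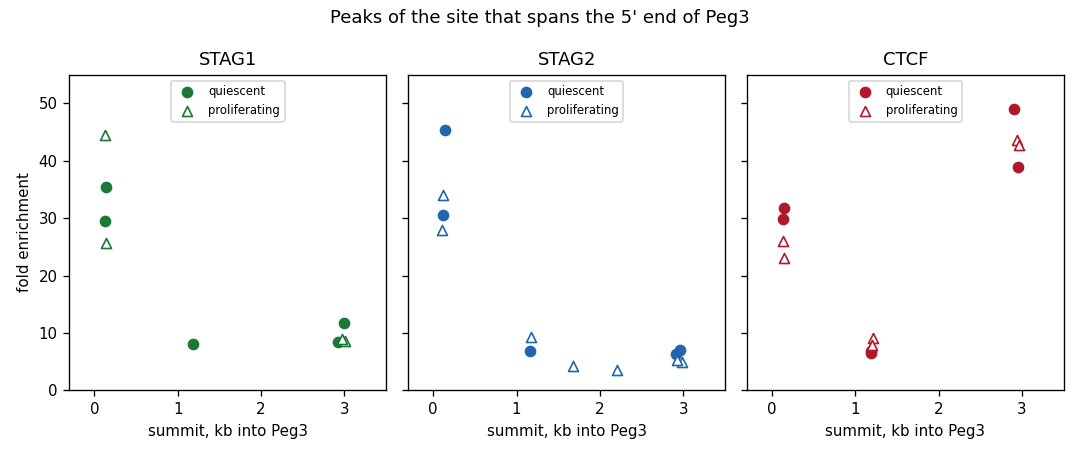
Fold enrichment of each peak (vertical axis) of the site at the 5′ end of Peg3 by the position of its summit (horizontal axis, kb into Peg3), with 1 panel per antibody, filled circles for quiescent and open triangles for proliferating libraries. STAG1 and STAG2 are highest near the start, and CTCF is highest about 3 kb inside, at 39.0 and 49.0 in quiescent cells.

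The rest of the Peg3 window held little. The first site, in the neighbouring imprinted gene Zim1, was called for CTCF at 5.67 and 14.3 in quiescent cells, against 7.34 and 4.67 in proliferating cells, and in no STAG library. The fourth site, chr7:6730858-6731296 in Usp29, lay 396 bp beyond the end of Peg3. It was called for STAG1 in no quiescent library, against 5.17 and 4.67 in proliferating cells. This weak site lay just beyond the third site, which STAG1 held in both states.

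Grb10 encodes an adaptor protein that restrains signalling by the insulin receptor, and Mest an enzyme-like protein of the alpha/beta hydrolase family. Of the 5 Grb10 sites, 3 were called in all libraries. The second, chr11:11973205-11973898, lies in the body of the gene, and its STAG1 folds were 50.9 and 50.4 in quiescent cells, against 53.9 and 42.4 in proliferating cells. Its STAG2 folds were 42.4 and 22.4 in quiescent cells, against 41.9 and 23.95 in proliferating cells. Its CTCF folds were 30.9 and 33.4 in quiescent cells, against 43.9 and 19.96 in proliferating cells. The STAG1 folds stood at percentiles of 96.4 to 98.4 within their lists, while STAG2 and CTCF each varied more between the 2 replicates than between the states.

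The fourth site, chr11:12025360-12027029, had its centre 1.78 kb downstream of an internal start of Grb10. In mouse, the paternal copy is read from an internal promoter in neurons. Its folds ran from 18.8 to 36.01 over the 12 libraries. The fifth, chr11:12036415-12038114, covered the upstream promoter printed above. Its STAG2 folds were 29.1 and 22.4 in quiescent cells, against 9.06 and 14.7 in proliferating cells. They did not overlap, but the share of all sites that separate in this way was not counted. Over all libraries the folds ran from 6.04 to 29.1, and those of STAG1 and CTCF overlapped between the states. The third was called in all 8 STAG libraries and in 1 of 2 quiescent and 1 of 2 proliferating CTCF libraries. The first, chr11:11908280-11908764, lay outside the gene and was called for CTCF at 7.33 and 12.1 in quiescent cells, against 6.47 and 6.9 in proliferating cells, and in no STAG library.

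At Mest, which is read from the paternal copy, the fourth site, chr6:30736791-30739455, covered the more downstream of its listed starts. Its main summit lay at a median of -926 bp from that start for STAG1 and -914 bp for CTCF, minus here meaning upstream. The STAG1 folds there were 45.9 and 41.9 in quiescent cells, against 34.4 and 52.9 in proliferating cells. The STAG2 folds were 40.9 and 39.4 in quiescent cells, against 37.9 and 23.0 in proliferating cells. The CTCF folds were 49.9 and 47.9 in quiescent cells, against 43.9 and 33.4 in proliferating cells. For STAG2 and CTCF both quiescent folds were above both proliferating folds, and for STAG1 they lay between them. Ranked among the shared sites, STAG2 overlapped, at 89.8% and 93.3% in quiescent cells, against 90.2% and 80.4% in proliferating cells. The CTCF ranks did not, at 89.0% and 90.5%, against 84.5% and 73.9%. How many of all sites separate in this way was not counted. All 12 folds stood at or above a percentile of 90.8 in their lists. A lower summit downstream of the start, inside the gene, was called in 11 libraries. The third site, 151 bp before the gene, was called in 1 quiescent STAG1 library at 4.49.

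The first site of the Mest window, chr6:30693207-30694235 in the neighbouring gene Cep41, was called in all 8 STAG libraries. Its percentiles there ran from 63.3 to 89.4. CTCF was called in 1 of 2 quiescent libraries, at 5.49, and in both proliferating libraries, at 3.41 and 5.6, with percentiles of 1.29 to 28.8.

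Peg10, a gene derived from a retrotransposon and needed in the placenta, shares its 5′ end with Sgce, which encodes epsilon-sarcoglycan. The third site there, chr6:4746497-4748386, covered that end with a median summit -105 bp from it, minus here meaning outside Peg10. Its STAG2 folds were 35.9 and 23.9 in quiescent cells, against 27.9 and 20.5 in proliferating cells. Its STAG1 folds were 17.0 and 15.5 in quiescent cells, against 19.96 and 21.5 in proliferating cells. Its CTCF folds were 34.9 and 33.4 in quiescent cells, against 48.4 and 44.4 in proliferating cells. Both CTCF and both STAG1 values were lower in quiescent than in proliferating libraries, and the STAG2 values overlapped. No share of all sites with such a separation was counted. The fourth site, inside Peg10, was called in 11 libraries, with folds between 4.99 and 11.5.

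Plagl1 encodes a zinc finger transcription factor. The third of its 4 sites, chr10:13090394-13091354, covered the listed start and was called in all 8 STAG libraries but in 1 of 2 quiescent CTCF libraries, at 4.05, and 1 of 2 proliferating ones, at 5.85. Its STAG1 folds were 11.7 and 7.76 in quiescent cells, against 5.85 and 11.3 in proliferating cells. Its STAG2 folds were 18.9 and 11.2 in quiescent cells, against 7.66 and 6.9 in proliferating cells. Both quiescent STAG2 folds were thus above both proliferating ones, a separation whose share over all sites was not counted. The second site, chr10:13087124-13087690, lay 3142 bp before the gene and was called in 7 libraries. It was called for CTCF at 15.8 and 20.8 in quiescent cells, against 12.4 in 1 of 2 proliferating libraries, and for STAG2 in no quiescent library, against 6.43 in 1 proliferating library. STAG1 was called there at 7.42 in 1 quiescent library, against 10.4 and 6.43 in proliferating cells.

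The fourth Plagl1 site, chr10:13127177-13127897, lay inside the gene near its other end and was called in 10 libraries, as many as the third. Its CTCF folds were 12.97 and 11.0 in quiescent cells, against 17.0 and 16.0 in proliferating cells. STAG1 was called at 5.49 in 1 of 2 quiescent libraries, against 6.99 and 6.49 in proliferating cells, and STAG2 at 5.99 and 11.5 in quiescent cells, against 3.49 in 1 of 2 proliferating libraries. The CTCF percentiles ran from 59.9 to 76.4, all above the STAG percentiles of 2.5 to 58.7. The third and the fourth site thus differed in which proteins were called in every library, STAG1 and STAG2 at the third and CTCF at the fourth.

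Meg3 is a maternally expressed long non-coding RNA, and its cluster also holds Rtl1, a paternally expressed gene derived from a retrotransposon, and Rian, a non-coding RNA. The cluster held 10 sites. The second and the third, chr12:109541869-109542485 and chr12:109542702-109543355, had their centres 1.18 kb and 2.03 kb downstream of the Meg3 start. They were called in 10 and 11 libraries. At the third the CTCF folds were 18.0 and 9.34 in quiescent cells, against 23.0 and 27.9 in proliferating cells. The STAG folds there lay between 4.67 and 8.0, below every CTCF fold. The percentiles within the lists overlapped, at 7.48 to 54.4 for STAG and 52.5 to 87.7 for CTCF. The seventh site, chr12:109594507-109595443, overlapped Rtl1 and the microRNA genes Mir136, Mir3071, Mir432 and Mir434, and was the 1 site of this locus called in all libraries. The ninth, chr12:109608922-109609528 in Rian, was called in 11 libraries, with folds from 6.49 to 18.5, and 1 quiescent CTCF library lacked it. The fifth, near the far end of Meg3, was called for CTCF at 7.48 and 6.49 in quiescent cells, against 6.49 and 9.48 in proliferating cells, and for STAG1 in 1 proliferating library at 4.99. The sixth and the eighth were each called in 1 proliferating STAG1 library, at 4.49 and 3.99. The antisense arrangement of Rtl1 and these microRNA genes means that a peak cannot be given to either strand. Upstream of Meg3, where the control region between the genes is known to lie, 1 site was called in the window, 12384 bp before the gene, for STAG2 at 6.99 in 1 quiescent library and 4.49 in 1 proliferating library.

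Rasgrf1 encodes an exchange factor that activates Ras, and its known control region lies upstream of the gene and is bound by CTCF where it is unmethylated. Upstream of the gene the window held 4 sites, and no CTCF library called any of them. The third, chr9:89879469-89880072, lay 29436 bp before the gene and was the 1 site of all loci called in every STAG2 library and in no CTCF library. That is 1.3% of the sites, against 1.97% of all sites. Its STAG2 folds were 10.5 and 6.98 in quiescent cells, against 4.99 and 8.48 in proliferating cells. STAG1 was called there in no quiescent library, against 1 of 2 proliferating libraries, at 4.49. The second, chr9:89874230-89874811, lay 34697 bp before the gene and was called for STAG2 in no quiescent library, against 10.5 and 12.5 in proliferating cells. The first and the fourth were each called in 1 library.

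At the Rasgrf1 start, the fifth site, chr9:89909488-89910616, covered the promoter printed above and was called in 8 libraries with folds from 3.49 to 8.48. CTCF was called there at 3.49 in 1 quiescent library, against 5.49 in 1 proliferating library. The median summits lay 495.5 bp downstream of the start for STAG1, 279 bp for STAG2 and 214.5 bp for CTCF. These medians are outside the printed sequence. The eleventh site, 759 bp beyond the other end of the gene, was called in 1 quiescent CTCF library at 5.99. The strongest site of this window was the seventeenth, chr9:90076720-90077385, which lay 625 bp from Ctsh, a gene for a lysosomal protease. Its folds ran from 24.5 to 44.0 over the 12 libraries, at percentiles of 87.3 to 96.1. It began 49741 bp beyond Rasgrf1, so it stood just inside the 50 kb limit. Just outside, the nearest site beyond the same end lay 4692 bp past the limit and was called in 3 libraries, and one 2654 bp past the limit on the Mrpl23 side of H19 was called in 12.

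Impact encodes a regulator that restrains the kinase GCN2. None of its 11 sites was called in all libraries. The seventh, in the gene, was called in 11 libraries and joined 17 peaks whose summits did not coincide. The highest STAG1 summits lay 19.7 and 19.3 kb into the gene in quiescent cells, against 18.4 and 18.4 kb in proliferating cells, so the STAG1 folds of the 2 states come from different summits. The highest folds for STAG1 were 5.44 and 4.87 in quiescent cells, against 5.35 and 8.76 in proliferating cells. The highest for STAG2 were 7.3 and 7.3 in quiescent cells, against 5.93 and 7.91 in proliferating cells. CTCF was called at 4.86 in 1 of 2 quiescent libraries, against 4.86 and 6.47 in proliferating cells. Percentiles ran from 10.6 to 58.0, so no library had this site among its highest peaks. The eighth site, also in the gene, was called for CTCF at 9.05 and 10.2 in quiescent cells, against 6.47 and 7.17 in proliferating cells, and in no STAG library. The fifth site, at the low end of the gene, was called in 5 libraries, with folds from 4.74 to 6.9, and the ninth, 2626 bp beyond the other end, in 1 proliferating CTCF library at 3.99.

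Sites with CTCF in all 4 libraries and no STAG peak were thus found in 4 places, at H19/Igf2, Grb10, Peg3 and Impact, which is 5.19% of the sites, against 6.12% of all sites. Sites with a STAG peak and no CTCF peak numbered 23, which is 29.9%, against 25.7% of all sites.

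The share of STAG sites with CTCF in both libraries of the same state was computed for each STAG library. For STAG1 it was 73.9% ± 2.73 in quiescent cells and 69.7% ± 13.7 in proliferating cells (SD, n = 2 each). For STAG2 it was 63.0% ± 9.83 in quiescent cells and 60.3% ± 3.08 in proliferating cells (SD, n = 2 each). Over all sites of the genome the mean for STAG1 was 72.2% in quiescent cells and 66.5% in proliferating cells, and that for STAG2 was 67.1% in quiescent cells and 61.1% in proliferating cells. At the loci the libraries of the 2 states overlapped for both proteins.

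A site was called lost for an antibody where both proliferating libraries and no quiescent library had it, and gained where both quiescent libraries and no proliferating library had it. For STAG1, 3 of 29 sites were lost, which is 10.3%, against 7.75% of all such sites. They were the second site of Impact, the fourth of Peg3 and the fifteenth of Rasgrf1. None of 23 was gained, against 1.28% of all such sites. For STAG2, 3 of 34 sites were lost, which is 8.82%, against 10.2% of all such sites, and all 3 lay in the Rasgrf1 window, as the second, the twelfth and the fourteenth site there. Of 29 STAG2 sites, 2 were gained, which is 6.9%, against 1.93% of all such sites. They were the twelfth site of H19/Igf2 in Igf2 and the sixth Impact site.

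For CTCF, none of 32 sites was lost, against 4.58% of all such sites, and 2 of 32 were gained, which is 6.25%, against 7.64% of all such sites. Both lay in the Impact window, as the third and the tenth site there, with folds of 3.4 and 11.5 at the third and 3.8 and 9.4 at the tenth. Both states shared 22 sites for STAG1, 26 for STAG2 and 28 for CTCF in all 4 libraries. Sites called in both proliferating libraries numbered 29, 34 and 32 in the same order. The share kept over all sites of the genome was not counted, so these counts cannot set the loci apart from it. Without proliferating replicate 1 of STAG1 the count of lost STAG1 sites was 16 in place of 3, since proliferating replicate 2, the longest STAG1 list, then decided alone, and without quiescent replicate 1 it was 7. Without quiescent replicate 2 of STAG2 the count of gained STAG2 sites was 5. The count of lost STAG2 sites was 7 without quiescent replicate 1 or proliferating replicate 1, and 9 without proliferating replicate 2. For CTCF, gained sites numbered 6 without quiescent replicate 1, and lost sites numbered 1 to 5 without any 1 of its 4 libraries. Gained STAG1 sites numbered 2 without quiescent replicate 1, and 1 without quiescent replicate 2 or proliferating replicate 2.

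Peaks per window were compared between the states with limma on log2(peaks + 1) over 27083 windows with a mean of at least 1 peak, with Benjamini-Hochberg adjustment. None of the 9 imprinted loci passed an adjusted p of 0.05 for any antibody. In the whole genome, STAG2 peaks were lower in quiescent cells in 0.0111% of windows and the mean of the 3 antibodies was lower in 0.0295%. No window passed for STAG1 or CTCF by limma. Under an unadjusted p of 0.05 were 2922 windows for STAG1, which is 10.8%, 3544 for STAG2, which is 13.1%, and 1989 for CTCF, which is 7.34%. The median window was at -0.21 for STAG1 and STAG2 and 0.06 for CTCF, and the quiescent STAG lists held 34281 to 38407 peaks, against 38857 to 50468 in the proliferating STAG lists.

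Of the 9 loci, 1 was under an unadjusted p of 0.05 for STAG2 and 1 for STAG1, which is 11.1% for each antibody and near the shares of all windows, and none was for CTCF. At Rasgrf1, STAG2 gave 8 and 5 peaks in quiescent cells, against 12 and 12 in proliferating cells. Both quiescent libraries were below both proliferating ones, with a log2 change of -0.82 (SE 0.29), and the adjusted p by limma was 0.308. When every list was cut to the length of the shortest, the change was -0.11. At Impact, STAG1 gave 1 and 1 peaks in quiescent cells, against 2 and 6 in proliferating cells. The groups did not overlap, the log2 change was -1.20 (SE 0.44) and the adjusted p by limma was 0.393. Without the proliferating library with 6 peaks, the change was -0.58.

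Apart from these 2 values, the changes at the 9 loci ran between -0.57, for STAG1 at Rasgrf1, and 0.16 on the log2 scale. At H19/Igf2 they were -0.13 (SE 0.23) for STAG1, 0.06 (SE 0.23) for STAG2 and 0.06 (SE 0.23) for CTCF, with 10 CTCF peaks on average in quiescent cells and 9.5 in proliferating cells. At Grb10 they were 0.13 (SE 0.16) for STAG1 and 0.00 for both STAG2 and CTCF. The median over the 9 loci was -0.29 for STAG1, 0.00 for STAG2 and 0.00 for CTCF, beside -0.21, -0.21 and 0.06 over all windows.

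**Figure D5:**
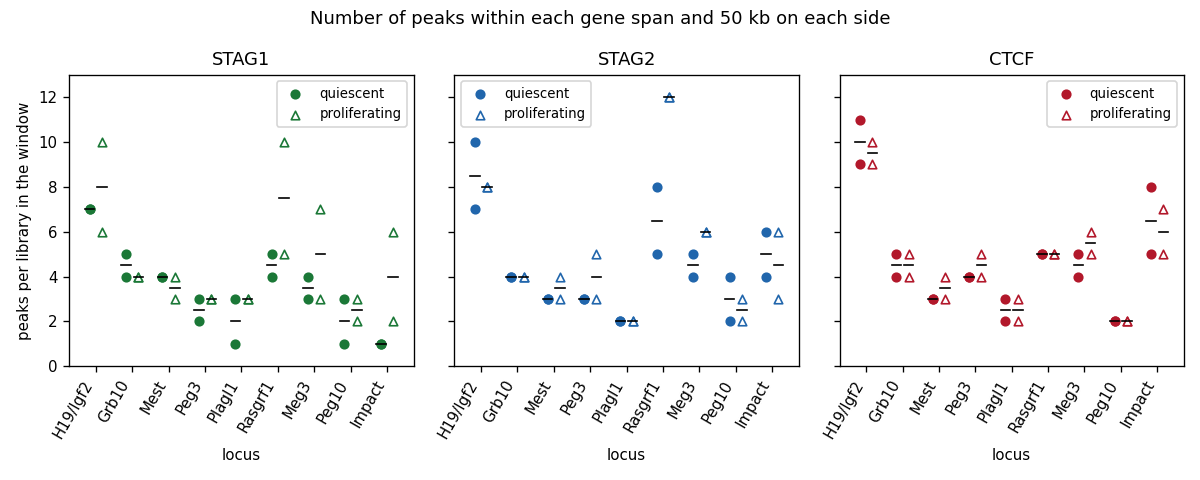
Number of peaks in each window (vertical axis) at the 9 loci (horizontal axis), with 1 panel per antibody, 1 point per library, quiescent (filled circles) left of proliferating (open triangles) and a bar at the mean of 2 libraries. At Rasgrf1 both STAG2 points of proliferating cells stand at 12, above the quiescent points at 8 and 5.

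Of 52 other imprinted genes, listed with earlier results of these data known, 47 had windows that were tested, and none passed by limma for any antibody. Under an unadjusted p of 0.05 were 1 for STAG1, which is 2.13%, 7 for STAG2, which is 14.9%, and 2 for CTCF, which is 4.26%, against 10.8%, 13.1% and 7.34% of all windows. The 7 STAG2 genes stood in 4 separate regions, since the windows of Igf2r and Airn, of H13 and Mcts2 and of Blcap and Nnat overlap. The median changes were -0.21 for STAG1, -0.16 for STAG2 and 0.00 for CTCF. A site called in all 12 libraries stood within 5 kb of an end in 25 of the 52 genes, which is 48.1%, against 39.1% of all genes, and within the window in 38 of 52, which is 73.1%, against 67.7% of all windows. The list is not a set apart from the members. The windows of Rtl1 and Zim1 gave the same peak numbers in every library as those of Meg3 and Peg3. Sgce and Usp29 share the site at the 5′ end of Peg10 and of Peg3. The counts over the 52 genes are thus not counts of separate regions.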

How the data were processed

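The labels give the antibody, the state and the biological replicate of each library. The build mm10 and the tools HOMER, MACS2, Picard, BWA and bcl2fastq are named per the submitters' processing notes, in versions not given in the sources used here. A peak list per library was deposited, without pooling of replicates. Its columns, as the authors' caller wrote them, are the fold over background, the -log10 p-value, the -log10 q-value and the summit. The sample titled as input is labelled with IgG and was not analysed here, and which background the folds were taken over was not settled.

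The members and the list of other imprinted genes were chosen with earlier results of these data known. All members are named. Sites were named where they were the most widely shared of a locus, lay within 5 kb of a member's end (10 kb for H19, 40 kb for Meg3 and Rasgrf1), were lost or gained, or were called in all libraries of 1 antibody and none of another. The lists hold no read totals, so no interval that needs depth was computed. Gene spans came from a RefSeq table of GRCm38.p6, the same build as mm10. Peaks were merged with Python 3.11.15 and pandas 2.3.3. Windows were tested with limma 3.58.1 in R 4.3.3, as 1 fit of all 12 libraries with a mean for each of the 6 groups, no replicate block, a pseudocount of 1 and a mean of at least 1 peak. The scripts were tested on simulated data. Alternatives were a -log10 q of at least 5, lists cut to the shortest, summits within 200 bp, windows of 100 kb or the gene span alone, a pseudocount of 0.5, no filter, a replicate block and each library left out.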

Additional observations from a re-analysis of the deposited data

How the results depend on the processing

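None of the 9 loci passed the limma threshold under any alternative, each library left out included. The lists hold no read totals, so what depth limits could not be measured, and the causes of the differences below were not tested.

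Deviations of same-numbered quiescent and proliferating libraries from their group means were correlated within each antibody over 27083 windows. The values were 0.026 for STAG1, 0.050 for STAG2 and -0.065 for CTCF, so no pairing by number was seen between the states. Libraries of different antibodies with the same state and number were not compared. Whether such libraries shared a culture or a chromatin preparation was not tested. With the replicate number as a block, 0 windows passed for the mean of the antibodies in place of 8, and 0 for STAG2 in place of 3.

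The windows decided how many sites were counted. With 100 kb there were 123 sites, of which 30 were called in every library. There, 4 shared sites had STAG ranks above and 4 below those of CTCF, and 6 had STAG2 ranks above and 4 below those of STAG1. With the gene span alone there were 32 sites, 9 of them in every library, and 0 were lost for STAG1, 0 lost for STAG2 and 0 gained for CTCF. The mean share of STAG sites with CTCF was then 75.6% in place of 66.7%, 0 shared sites had STAG below CTCF, and 1 each had STAG2 above and below STAG1.

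With a -log10 q of at least 5, 1 CTCF site was gained and 1 shared site had STAG above CTCF. With lists cut to the shortest, 4 STAG2 sites were gained, 1 CTCF site was lost, 0 were gained, and 1 shared site had STAG2 below STAG1. With summits within 200 bp, 1 CTCF site was gained. The shorter motif core was in 3 promoters, against 0 with the longer one.

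Windows past the limma threshold for the mean of the antibodies numbered 8 (0 higher and 8 lower), against 157 (71 higher and 86 lower) with lists cut to the shortest, where the median change was 0, 0 with 100 kb, 296 (153 higher and 143 lower) with the gene span, 17 with the pseudocount of 0.5 and 248 (85 higher and 163 lower) without a filter. For STAG1 they numbered 0, against 37 with the stricter q, 47 with cut lists, 57 with the gene span, 6 with the pseudocount and 44 without a filter. For STAG2 they numbered 3, against 16, 52, 77, 13 and 111 in the same order, and 0 with 100 kb. For CTCF they numbered 0, against 49 with the stricter q, 193 with cut lists, 245 with the gene span and 150 without a filter.

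With each library left out in turn, windows past the threshold ranged from 0 to 124 for the mean, 0 to 64 for STAG1, 0 to 109 for STAG2 and 0 to 360 for CTCF, the highest without a quiescent CTCF library. Sites ranged from 72 to 78, those in every library from 15 to 18, and the share with CTCF from 64.6% to 75.2%. Lost sites ranged from 2 to 16 for STAG1, 3 to 9 for STAG2 and 0 to 5 for CTCF, and gained ones from 0 to 2 for STAG1, 2 to 5 for STAG2 and 2 to 6 for CTCF. Shared sites with STAG ranks above CTCF ranged from 2 to 3, those below from 2 to 3, those with STAG2 above STAG1 from 2 to 3 and those below from 2 to 4. Those with every quiescent rank of all antibodies below every proliferating one ranged from 0 to 1, and those above stayed at 0. The change at Rasgrf1 for STAG2 ranged from -1.12 to -0.53, with adjusted p by limma from 0.169 to 0.846, and that at Impact for STAG1 from -1.81 to -0.58, with adjusted p from 0.0959 to 0.913.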

Other observations

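Among the other imprinted genes, the window of Airn, the paternally expressed long non-coding RNA that silences Igf2r in cis, had the largest log2 change of CTCF and of STAG2 in the list, in opposite directions. It held 10 and 18 CTCF peaks in quiescent cells, against 7 and 5 in proliferating cells, and the quiescent libraries were both above the proliferating ones. It held 4 and 3 STAG2 peaks in quiescent cells, against 8 and 9 in proliferating cells, and here the quiescent libraries were both below. STAG1 gave 5 and 8 peaks in quiescent cells, against 7 and 10 in proliferating cells, which overlapped. The log2 change was 1.06 (SE 0.32) for CTCF, with an adjusted p by limma of 0.486, and -1.08 (SE 0.32) for STAG2, with an adjusted p by limma of 0.262. The change of STAG2 less that of CTCF was -2.15 (SE 0.45) and missed the threshold over all windows, with an adjusted p by limma of 0.254. Airn was singled out after its values were seen, and CTCF quiescent replicate 2 is the longest list of the series, with 71757 peaks.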
